A study of Mus musculus with 9 samples.

Results

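This account covers 9 genes: Cnr2, Plxnd1, Tmprss13, Gpc1, She, Ptpn5, Hbegf, Adm and Pglyrp1. They were selected on their measured differences from control: their readings were lower in both CBP-deleted and p300-deleted regulatory T (Treg) cells than in control Treg cells, and the size of those differences is a description that carries no test. The 9 genes are read by 12 probe sets, out of 12393 genes and 22626 probe sets measured. CBP and p300 are related acetyltransferases that act on histones and other proteins, and the study compared Treg cells lacking either one with controls. The CBP-deleted cells came from fl-CBP/Foxp3cre mice and the p300-deleted cells from fl-p300/Foxp3cre mice. The control mice are labelled Foxp3cre by genotype and WT by sample name, and all mice were on a C57Bl/6 background, with ages not given in the sources used here. All 3 groups therefore carry Foxp3cre by genotype label, yet the Foxp3 readings given below separate the controls from both knockouts. Where a control lacks the Foxp3cre allele, its effect and that of the deletion cannot be told apart. Cre driven from Foxp3 deletes only in cells that express Foxp3, whereas the cells were taken with magnets as CD4+CD25+, a gate that can include cells without Foxp3. Each group has 3 arrays of independent samples, and with so few arrays the precision is limited.

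The 9 genes belong to no single pathway. Cnr2 and Plxnd1 encode receptors: Cnr2 is the cannabinoid receptor of immune cells, a G protein-coupled receptor best known on B cells, and Plxnd1 is the plexin that binds the semaphorin Sema3E and guides thymocytes and blood vessels. Gpc1 is a lipid-anchored proteoglycan whose heparan sulfate chains hold growth factors, and Tmprss13 is a serine protease anchored in the membrane. Hbegf, a heparin-binding ligand of the EGF receptor, and Adm, the vasodilator peptide adrenomedullin, are released ligands. Pglyrp1 is a secreted protein that binds bacterial peptidoglycan and is stored in neutrophil granules. Ptpn5, a tyrosine phosphatase that inactivates MAP kinases, and She, an adaptor with an SH2 domain, act inside the cell.

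Of the 9 genes, 6 have an entry among the RefSeq promoter sequences used (build GRCm38.p6), with 8 start sites in all. The 250 bases before 4 of these starts are shown, because they cover the contrast among the genes between CpG-rich starts and starts with a TATA motif. Each reads 5′ to 3′ on the gene's strand, and capitals mark 3 motifs found on either strand. The GC box, bound by Sp1, reads GGGCGG. The TATA motif near many start sites reads TATAA. The core of the hypoxia response element reads ACGTG. The Plxnd1 window is chr6:115995006-115995255 (minus strand), that of She is chr3:89831120-89831369 (plus), that of Adm is chr7:110627407-110627656 (plus) and that of the second Cnr2 start is chr4:135911430-135911679 (plus).
Plxnd1: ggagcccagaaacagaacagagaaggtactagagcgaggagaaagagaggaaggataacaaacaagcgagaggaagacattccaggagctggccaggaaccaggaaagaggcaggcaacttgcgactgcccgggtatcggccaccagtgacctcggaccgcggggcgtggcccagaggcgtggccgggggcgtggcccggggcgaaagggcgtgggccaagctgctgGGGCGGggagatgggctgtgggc
She: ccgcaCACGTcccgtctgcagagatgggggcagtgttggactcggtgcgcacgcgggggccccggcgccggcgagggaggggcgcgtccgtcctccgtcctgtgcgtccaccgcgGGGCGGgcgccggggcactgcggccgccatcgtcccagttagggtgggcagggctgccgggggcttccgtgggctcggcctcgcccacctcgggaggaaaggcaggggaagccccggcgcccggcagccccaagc
Adm: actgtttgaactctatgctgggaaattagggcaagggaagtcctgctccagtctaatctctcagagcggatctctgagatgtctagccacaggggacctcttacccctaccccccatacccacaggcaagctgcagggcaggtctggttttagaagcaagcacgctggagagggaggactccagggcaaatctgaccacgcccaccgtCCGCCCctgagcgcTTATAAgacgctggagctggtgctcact
Cnr2 second start: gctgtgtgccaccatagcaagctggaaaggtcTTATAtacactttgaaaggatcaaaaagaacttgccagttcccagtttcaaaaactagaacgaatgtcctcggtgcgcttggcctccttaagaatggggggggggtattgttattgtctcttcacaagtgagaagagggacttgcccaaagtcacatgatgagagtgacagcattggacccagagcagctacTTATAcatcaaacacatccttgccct
The She window was 77.6% G and C with 32 CpG pairs and the Plxnd1 window 64.8% with 16, against a median of 52.4% and 6 over all 32851 windows. The Adm window had 7 CpG pairs and the Cnr2 window had 3, so the genes do not share one promoter type. The full cAMP response element, TGAC followed directly by GTCA, is bound by CREB, the factor from which CBP takes its name. It was in 0 of the 8 windows of 300 bases, and in 1.79% of all windows. Its shorter core site, TGACG, was in 0 of 8 windows and in 20.8% of all. The AP-1 motif, written TGANTCA, was in 0 of 8 and in 7.81% of all. The E-box, which reads CACGTG, was in 0 of 8 and in 7.15% of all. A forkhead motif, the letters TGTTTAC, was in 0 of 8 and in 3.65% of all. The E-box contains the hypoxia response core, and the full response element contains the core site, so these shares overlap. A GC box was in 5 of 8 windows (35.7% of all), a TATA motif in 2 (24.9%) and the hypoxia response core in 2 (19.6%). The genes lie on chromosomes 1 (Gpc1), 3 (She), 4 (Cnr2), 6 (Plxnd1), 7 (Adm, Ptpn5 and Pglyrp1), 9 (Tmprss13) and 18 (Hbegf), and none on chromosome 16, which holds Crebbp, the gene of CBP. The 3 genes of chromosome 7 are far apart: Pglyrp1 is at chr7:18884690-18890438, Ptpn5 at chr7:47077795-47134026 and Adm at chr7:110627657-110629820.

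The values are log2 readings of each probe set, so a level can be compared between arrays but not between genes. Array medians were 5.49 to 5.59, and the lower quartile of all probe sets was 3.34 to 3.41. Crebbp read 7.35, 7.11 and 7.13 in CBP-deleted cells, 7.67, 7.48 and 7.53 in p300-deleted cells, and 7.56, 7.67 and 7.36 in control cells. The labels do not give the deleted exon, so this probe set may lie outside it. For p300 the targeted gene is not analysed here. The T cell marker Cd3e read 11.33 to 11.74 on all 9 arrays. Averaged over 6 measured T cell markers, controls read 11.07 to 11.23 and CBP-deleted arrays 11.15 to 11.25. The p300-deleted arrays lay above both, at 11.39 to 11.51. At a limma adjusted p under 0.05, p300 deletion had 3 of these 6 markers above control and 0 below. For CBP deletion the counts were 1 above and 1 below. Foxp3 read 2.58 to 3.19 on the 6 knockout arrays, below the lower quartile, and 9.48 to 9.75 on the controls. Whether this probe set reads the transcript of a Cre-bearing Foxp3 allele is not stated. Of 7 Treg markers, Foxp3 included, 2 fell and 1 rose in CBP-deleted cells (median -0.18). In p300-deleted cells 1 fell and 1 rose (median 0.32). Il2ra, the gene of CD25, averaged 9.09 in CBP-deleted cells, 9.29 in p300-deleted cells and 9.05 in controls by its brighter probe set. Among all genes, limma (adjusted p under 0.05) called 2.79% lower and 2.14% higher in CBP-deleted cells, and 2.04% lower and 2.02% higher in p300-deleted cells, against control. With each array's median subtracted the p300 split was 300 lower and 192 higher in place of 253 and 250.

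In both knockouts the 9 genes were below control: the median log2 difference from control was -1.10 in CBP-deleted cells (range -1.57 to -0.82) and -0.85 in p300-deleted cells (range -2.22 to -0.59). The median of all genes was -0.03 and -0.02. All 9 were among the 49 genes called lower in both, and all 9 had their 6 knockout arrays below every control array, as the choice of members fixes. Of all 12393 genes, 574 had this pattern. In single comparisons 14.5% of all genes had all CBP-deleted arrays below all controls and 11.5% had all p300-deleted arrays below them. Ordered by the smaller of the 2 falls, the members held places 2 to 16 of the 49. The last of them, Pglyrp1, had a smaller fall of 0.593, and the next gene outside, Susd2, had one of 0.593 as well. The Foxp3 reading held the first place, and Klra17, Spib, Gbp2b, Cd44, Chdh and Fam234b, which are not members, lay between the members. Both comparisons use the same 3 control arrays.

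**Figure D1:**
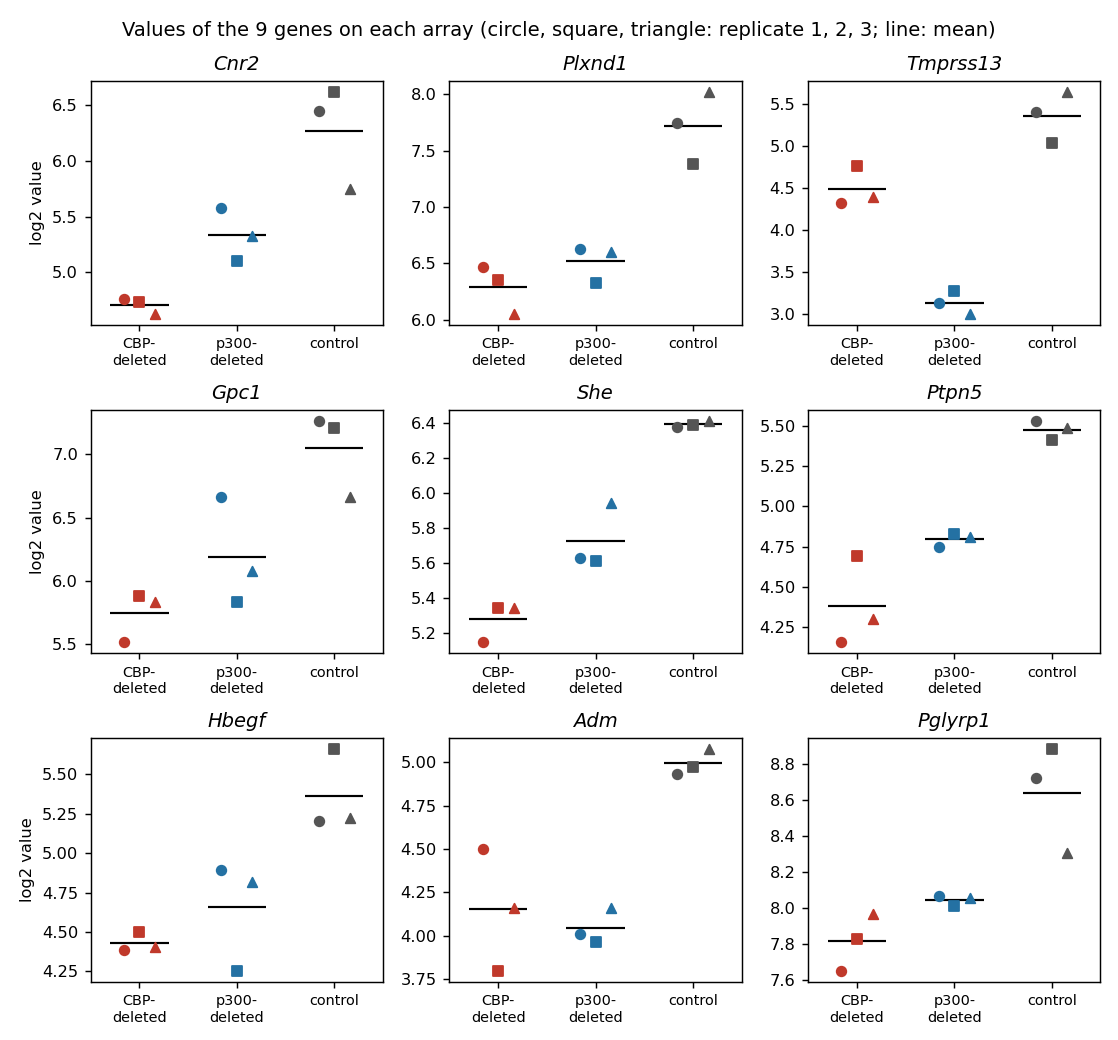
Log2 value of each of the 9 genes (vertical axis, own scale per panel) on each array of the CBP-deleted, p300-deleted and control groups; symbols are the 3 replicates and lines the group means. In every panel the 6 knockout arrays lie below the 3 controls, and for Tmprss13 the p300-deleted arrays (3.01 to 3.28) lie lowest.

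Cnr2 read 4.76, 4.73 and 4.63 in CBP-deleted cells, 5.58, 5.10 and 5.32 in p300-deleted cells, and 6.45, 6.62 and 5.75 in control cells. The 3 groups did not overlap, and control replicate 3 lay closest to the knockouts. The log2 difference from control was -1.57 (SE 0.20, 2.96-fold lower) in CBP-deleted cells and -0.94 (SE 0.20, 1.92-fold lower) in p300-deleted cells. Cnr2 is strongly expressed by B cells, and most B cell markers were lower by sign in both knockouts. Of 11 measured B cell markers 10 were lower by sign in CBP-deleted cells (median -0.251) and 9 in p300-deleted cells (median -0.215). By the test 5 fell in CBP-deleted cells, with 0 higher, and in p300-deleted cells 1 rose (Ighm) and 0 fell. Their mean level was 5.93 to 6.23 in CBP-deleted arrays, 6.18 to 6.66 in p300-deleted arrays and 6.50 to 6.70 in controls. Cd79b, a signalling chain of the B cell receptor, read 7.39, 6.79 and 7.46 in CBP-deleted cells, 7.86, 7.63 and 7.90 in p300-deleted cells, and 8.10, 8.28 and 7.79 in controls. For Cd79b, as for Cnr2, control replicate 3 was the lowest control. It was also the lowest for Cd79a and Cd22, whereas replicate 2 was for Ms4a1 (7.53) and replicate 1 for Ighm (13.62). The part of B cells in the Cnr2 result was not tested. In a bulk sample, fewer cells of a type and less RNA per cell cannot be told apart.

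Plxnd1 read 6.47, 6.35 and 6.06 in CBP-deleted cells, 6.63, 6.32 and 6.61 in p300-deleted cells, and 7.74, 7.38 and 8.02 in control cells. The knockout groups overlapped each other and both lay well below the lowest control. Its difference from control was -1.42 (SE 0.17, 2.68-fold lower) in CBP-deleted cells and -1.20 (SE 0.17, 2.29-fold lower) in p300-deleted cells. Here control replicate 3 was the highest control, the reverse of its place for Cnr2.

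Gpc1 read 5.51, 5.88 and 5.83 in CBP-deleted cells, 6.66, 5.83 and 6.08 in p300-deleted cells, and 7.27, 7.21 and 6.66 in controls. The groups only just separate: p300-deleted replicate 1 and control replicate 3 read nearly the same. The difference was -1.30 (SE 0.22, 2.47-fold lower) in CBP-deleted cells and -0.85 (SE 0.22, 1.81-fold lower) in p300-deleted cells.

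Tmprss13, the membrane protease, was the gene with the most unequal readings in the knockouts. It read 4.32, 4.76 and 4.40 in CBP-deleted cells, 3.13, 3.28 and 3.01 in p300-deleted cells, and 5.40, 5.03 and 5.64 in controls. Each p300-deleted array lay under the lower quartile of its own array (3.37 to 3.40). Its difference from control was -0.87 (SE 0.17, 1.82-fold lower) in CBP-deleted cells and -2.22 (SE 0.17, 4.65-fold lower) in p300-deleted cells. No detection calls were used here, and so low a reading may not follow the transcript further down.

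Hbegf, by its brighter probe set, read 4.38, 4.50 and 4.40 in CBP-deleted cells, 4.90, 4.25 and 4.82 in p300-deleted cells, and 5.20, 5.66 and 5.22 in controls. The difference was -0.93 (SE 0.18) in CBP-deleted cells and -0.71 (SE 0.18) in p300-deleted cells. Its second probe set gave -0.55 and -0.23: the CBP-deleted arrays (4.03 to 4.36) stayed below the controls (4.54 to 5.05), but the p300-deleted arrays (4.25 to 4.73) overlapped them.

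Adm read 4.50, 3.80 and 4.16 in CBP-deleted cells, 4.01, 3.97 and 4.16 in p300-deleted cells, and 4.93, 4.97 and 5.08 in controls. Its controls were tight and its CBP-deleted arrays were the most spread of the groups. The difference was -0.84 (SE 0.16, 1.79-fold lower) in CBP-deleted cells and -0.95 (SE 0.16, 1.93-fold lower) in p300-deleted cells. With Tmprss13 it was one of 2 members that were lower in p300-deleted than in CBP-deleted cells.

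Pglyrp1 read 7.65, 7.83 and 7.97 in CBP-deleted cells, 8.07, 8.01 and 8.06 in p300-deleted cells, and 8.72, 8.88 and 8.31 in controls. The difference was -0.82 (SE 0.14, 1.77-fold lower) in CBP-deleted cells and -0.59 (SE 0.14, 1.51-fold lower) in p300-deleted cells. Pglyrp1 is a granule protein of neutrophils. Of the neutrophil and monocyte markers, all 13 measured were higher in both knockouts by sign. Of these 13, 0 passed in CBP-deleted cells and 1, Camp, the cathelicidin of neutrophil granules, rose in p300-deleted cells (2.13, limma adjusted p = 0.0335). S100a8, an abundant neutrophil protein, read 7.64, 7.64 and 11.01 in CBP-deleted cells, 10.08, 7.69 and 8.77 in p300-deleted cells, and 6.98, 4.92 and 6.99 in controls. The arrays with the most S100a8, CBP-deleted replicate 3 and p300-deleted replicate 1, also had the highest Pglyrp1 of their groups, while still reading below all controls. Among the controls, replicate 2 had the lowest S100a8 and the highest Pglyrp1. Replicates 1 and 3 were nearly equal in S100a8 (6.98 and 6.99), and replicate 3 had the lowest Pglyrp1. Other markers of the list differed in order: S100a9 was highest on replicate 1 (6.67) and Ngp lowest there (4.54), while Camp ordered the controls as S100a8 did. The part of neutrophils in the Pglyrp1 result was not tested.

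Ptpn5 had 3 probe sets. The brightest read 4.15, 4.69 and 4.30 in CBP-deleted cells, 4.75, 4.83 and 4.81 in p300-deleted cells, and 5.53, 5.41 and 5.49 in controls, a difference of -1.10 (SE 0.14) and -0.68 (SE 0.14). The second gave -0.37 and -0.23, with CBP-deleted arrays at 4.21 to 4.42, p300-deleted arrays at 4.42 to 4.53 and controls at 4.63 to 4.81. The third gave -0.16 and -0.07, and its groups overlapped at 3.13 to 3.49 near the lower quartile. The Ptpn5 difference varied in size by probe set, while its sign was the same in all 3.

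She read 5.15, 5.34 and 5.34 in CBP-deleted cells, 5.63, 5.61 and 5.94 in p300-deleted cells, and 6.37, 6.39 and 6.41 in controls. Its controls were the tightest of any member (SD 0.02, n = 3). The difference was -1.11 (SE 0.12, 2.16-fold lower) in CBP-deleted cells and -0.66 (SE 0.12, 1.59-fold lower) in p300-deleted cells. She, Plxnd1 and Adm are also known from blood vessel endothelium. Of 8 endothelial markers 0 passed in either comparison. Their mean level was nevertheless lower, at 4.11 to 4.20 in CBP-deleted arrays and 4.18 to 4.27 in p300-deleted arrays, against 4.28 to 4.33 in controls. By sign 7 of the 8 were lower in CBP-deleted cells and 6 in p300-deleted cells. Single markers differed in level. Cdh5 read 2.59 to 3.25 on the 9 arrays, under the lower quartile throughout. Kdr read at least 4.11, above the lower quartile, and Pecam1 read 6.91 to 7.66, above the array medians. Pecam1 averaged 7.37 in CBP-deleted cells, 7.64 in p300-deleted cells and 7.29 in controls, so it was not lower in either knockout. Kdr averaged 4.37, 4.66 and 4.63 in the same order and was lower only in CBP-deleted cells. Cdh5, the dim marker, averaged 2.83, 2.90 and 3.07. The part of endothelial cells in the She, Plxnd1 and Adm results was not tested.

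**Figure D2:**
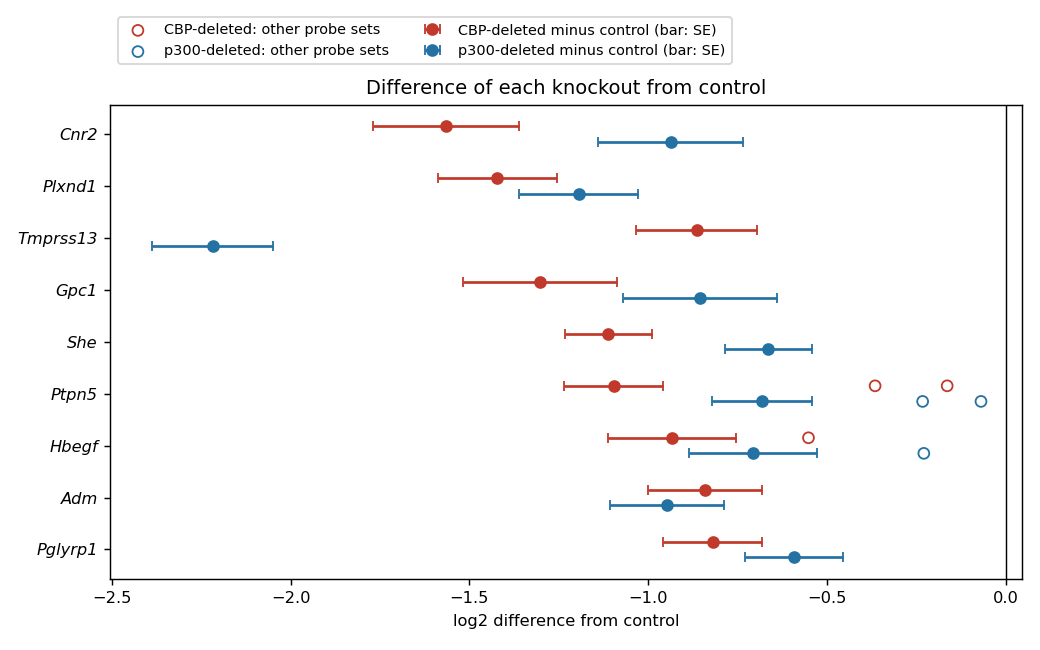
Log2 difference from control (horizontal axis) for each gene in CBP-deleted (red) and p300-deleted (blue) cells; filled points are the probe set used for the gene with its standard error, open points the other probe sets of Ptpn5 and Hbegf. All points lie below 0, and the other probe sets of Ptpn5 and Hbegf lie closer to 0 than the ones used.

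The comparison of CBP-deleted with p300-deleted cells was not itself used to choose the genes, and asks whether the genes read differently in the 2 knockouts. The choice did use the same 6 knockout arrays, and a gene low in a single knockout could not enter. These tests, and the shares of all genes beside them, are therefore not independent of the choice. Tmprss13 was 2.55-fold higher in CBP-deleted than in p300-deleted cells (log2 1.35, SE 0.17, 95% interval 0.98 to 1.72, limma adjusted p = 0.00169), with all 3 CBP-deleted arrays above all 3 p300-deleted arrays. It was the only one of the 9 to pass, where 5.20% of all genes did (3.20% higher and 2.01% lower in CBP-deleted cells). With 3 arrays a side, exact permutation has a smallest p of 0.1 and was not used.

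Of the other 8, Adm was 0.11 higher in CBP-deleted cells (95% interval -0.24 to 0.46) and 7 were lower by sign. She was -0.45 (interval -0.71 to -0.18, limma adjusted p = 0.0571), Cnr2 -0.63 (interval -1.07 to -0.18, limma adjusted p = 0.108) and Ptpn5 -0.41 (interval -0.72 to -0.11, limma adjusted p = 0.121). In these 3 the CBP-deleted arrays lay below all p300-deleted arrays, as they did for Pglyrp1. The Cnr2 difference passed under 3 of 19 alternatives: without control replicate 3 (limma adjusted p = 0.0149), with only the 2 knockout groups (0.0160) and with 18S as a covariate (0.00426), in all 0.00426 to 0.322. She passed under 6 of 19: with each gene's probe sets averaged (limma adjusted p = 0.0460), the dimmest genes left out (0.0429), no variance trend (0.0424), only the 2 knockout groups (0.0456), and without control replicate 2 or 3 (0.0470 and 0.0461), in all 0.0424 to 0.203. With Tmprss13, 5 of the 9 separated in one direction or the other, against 30.1% of all genes. Gpc1 was -0.45 (interval -0.92 to 0.02), Plxnd1 -0.23 (interval -0.59 to 0.14), Pglyrp1 -0.23 (interval -0.53 to 0.07) and Hbegf -0.23 (interval -0.62 to 0.16). These intervals include 0 but also differences as large as -0.53 to -0.92, so equal levels in the knockouts are not shown.

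**Figure D3:**
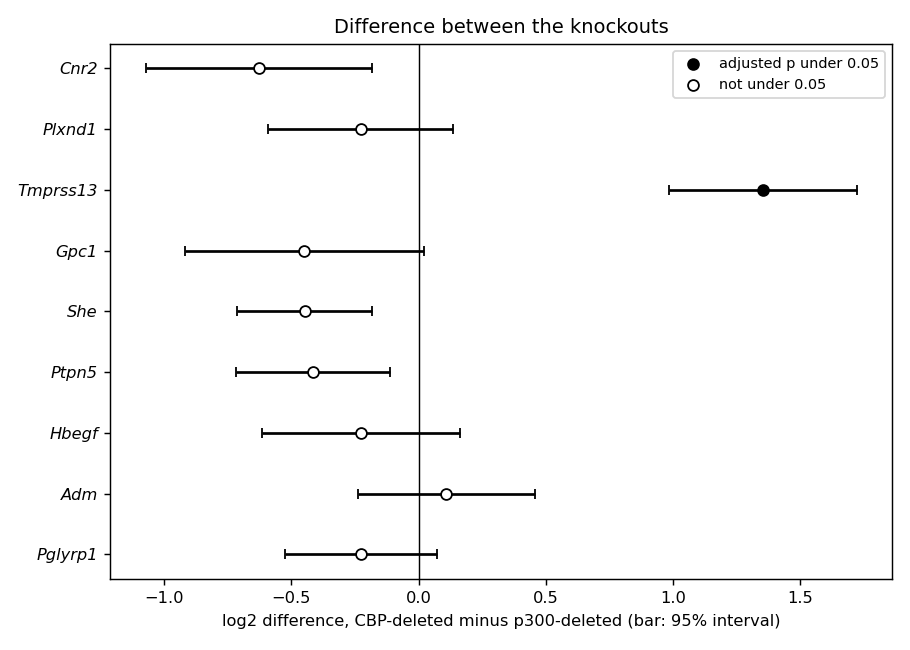
Log2 difference between CBP-deleted and p300-deleted cells (horizontal axis) with its 95% interval for each of the 9 genes; the filled point passed at an adjusted p under 0.05. Tmprss13 lies at 1.35, to the right of 0, and the other genes lie between -0.63 and 0.11.

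Within a group the 9 genes did not move as one. Over the 9 arrays, after each group's mean was subtracted, 17 of 36 pairs of genes had a positive correlation, with a median r of -0.02 and a range of -0.88 to 0.80. Cnr2, Gpc1 and Pglyrp1 varied together (r = 0.67 to 0.80), all low on control replicate 3. Plxnd1 and Pglyrp1 varied in opposite ways (r = -0.82), as did Ptpn5 and Adm (r = -0.88). These are descriptions over 9 arrays that share 3 group means. The array p300-deleted replicate 2 was the lowest of its group for 7 of the 9 genes. It also had the highest 18S ribosomal RNA reading of its group, 9.62 against 7.88 and 8.07. The CBP-deleted group differed: replicate 2, with the highest 18S of its group, was lowest for 1 of the 9 genes, and replicate 1, with the lowest (7.39), was lowest for 6. Among the controls replicate 3 read 8.88 for 18S, against 5.82 and 6.20, and was lowest for 3 of the 9 genes, Cnr2, Gpc1 and Pglyrp1. Group means of 18S were 7.75 ± 0.32 in CBP-deleted, 8.52 ± 0.96 in p300-deleted and 6.97 ± 1.66 in control cells (SD, n = 3 each). With 18S as a covariate, all 9 differences stayed below 0 in both knockouts. In p300-deleted cells some moved toward 0: Cnr2 to -0.55, Gpc1 to -0.52, Hbegf to -0.51 and Pglyrp1 to -0.41. Others moved away from 0: Tmprss13 to -2.44, Plxnd1 to -1.28 and Ptpn5 to -0.73. She (-0.66) and Adm (-0.93) changed little.

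**Figure D4:**
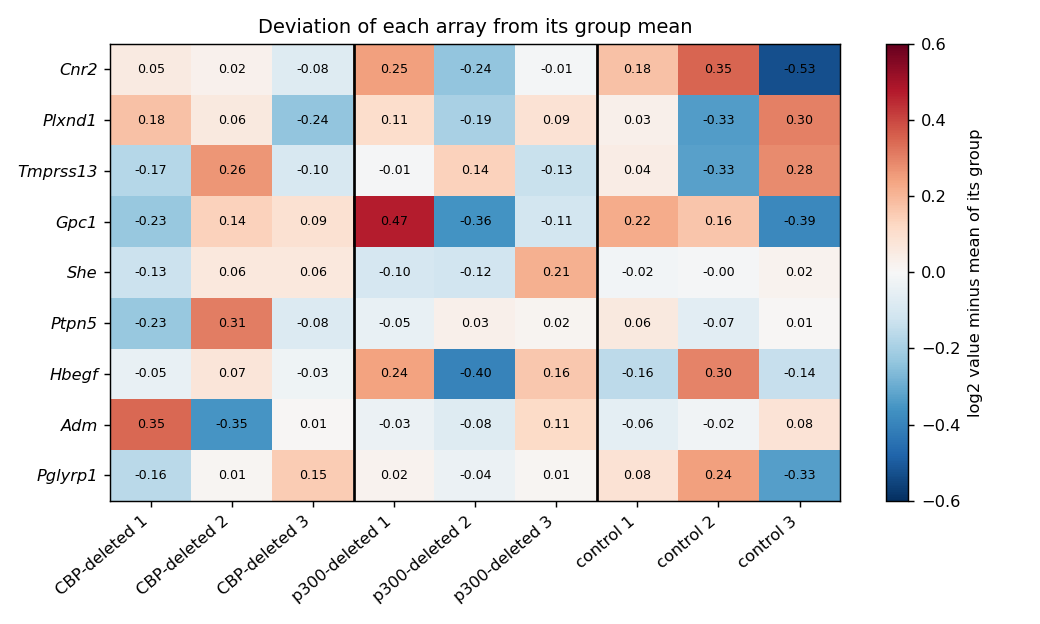
Deviation of each array from the mean of its own group (colour and printed number, log2) for the 9 genes in rows and the 9 arrays in columns. Control replicate 3 is low for Cnr2 (-0.53), Gpc1 (-0.39) and Pglyrp1 (-0.33) and high for Plxnd1 (0.30) and Tmprss13 (0.28).

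Most other genes of the 9 families did not pass the test in either knockout. Lists of relatives, partners and enzymes held 151 other genes, of which 118 were measured. In CBP-deleted cells 7 fell (5.93%) and 1 rose, with a median log2 difference of -0.08, and in p300-deleted cells 3 fell (2.54%) and 3 rose, with a median of -0.03. Of all genes, 2.79% fell in CBP-deleted cells and 2.04% in p300-deleted cells, with medians of -0.03 and -0.02, so the share of relatives that fell was above that of all genes in CBP-deleted cells; this difference was not tested.

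Around Cnr2, the endocannabinoid system had 9 measured genes. Mgll, which degrades the ligand 2-arachidonoylglycerol, fell in CBP-deleted cells (-0.69, limma adjusted p = 0.0165) and differed by -0.26 in p300-deleted cells (limma adjusted p = 0.325). Abhd4, an enzyme of anandamide synthesis, rose in p300-deleted cells (0.72, limma adjusted p = 0.0150). Fabp5, which carries fatty acids and anandamide, was 0.88 higher in CBP-deleted than in p300-deleted cells (limma adjusted p = 0.0199), with neither difference from control past the test. The other cannabinoid receptor, Cnr1, differed by -0.28 and -0.22 and did not pass.

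Around Plxnd1, 25 plexins, neuropilins and semaphorins were measured. Sema4a, a semaphorin that costimulates T cells, fell in both knockouts (-0.75, limma adjusted p = 0.00286, and -0.45, limma adjusted p = 0.0266). Sema4d, another semaphorin of T cells, fell in CBP-deleted cells (-0.44, limma adjusted p = 0.0328). None of the 6 other plexins measured passed; among them Plxnc1 differed by -0.11 in each knockout and Plxnb2 by -0.06 and -0.04. Nrp1, a semaphorin co-receptor found on Treg cells, differed by -0.23 and 0.04.

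Around Gpc1, 23 proteoglycans and heparan sulfate enzymes were measured. Sdc4, a syndecan, fell in CBP-deleted cells by 1.35 (limma adjusted p = 2.65e-04) and differed by -0.27 in p300-deleted cells. The levels in the 2 knockouts differed (-1.08, limma adjusted p = 0.00108). Sulf2, which trims sulfate from heparan sulfate chains, fell by 0.91 in CBP-deleted cells and differed by -0.01 in p300-deleted cells, and the knockouts differed (-0.90, limma adjusted p = 0.0310). In p300-deleted cells Ext1, which extends the chains, fell by 0.53, and Sdc1, a syndecan abundant on plasma cells, rose by 0.80; it differed between the knockouts too (-1.10, limma adjusted p = 0.00898). Plasma cell markers moved with Sdc1: 4 of 6, Sdc1 included, rose in p300-deleted cells (median 0.76), and 0 passed in CBP-deleted cells. Their mean level was 8.10 to 8.30 in CBP-deleted arrays, 8.64 to 9.05 in p300-deleted arrays and 8.08 to 8.16 in controls. Jchain, the joining chain of secreted antibody, averaged 12.90 in p300-deleted cells and 11.87 in controls. The part of plasma cells in the Sdc1 result was not tested.

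Around Tmprss13, 11 proteases and inhibitors were measured. In CBP-deleted cells Hpn fell (-0.97) and Tmprss4 fell (-0.51), while Tmprss3 rose (0.84), with limma adjusted p of 0.0179, 0.0410 and 0.00683; in p300-deleted cells 0 passed, and St14 had the largest difference (-0.43). Tmprss4 averaged 3.28 in CBP-deleted cells, under the lower quartiles of those arrays (3.34 to 3.36), and 3.79 in controls, so its fall rests on low readings. Tmprss4 lies 114.869 kb from Tmprss13 on chromosome 9 and Il10ra, a chain of the IL-10 receptor, lies between them. Il10ra differed by -0.50 and -0.52 and did not pass (limma adjusted p = 0.0727 and 0.0698). Among the 36 nearest measured neighbours of the 9 genes, 2 on either side of each, 2 fell in CBP-deleted cells, Tmprss4 and Swap70 near Adm, and 0 in p300-deleted cells; their median differences were -0.14 and -0.03. Of all genes 2.79% and 2.04% fell, with medians of -0.03 and -0.02, and with 36 neighbours nothing is read from these counts.

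Around Ptpn5, of 15 phosphatases 0 passed in CBP-deleted cells, and Ptpn11 rose by 0.35 in p300-deleted cells (limma adjusted p = 0.0481). Around Hbegf, of 17 genes 0 passed in CBP-deleted cells, where Errfi1, an inhibitor of EGF receptors, differed by 0.44, and Erbb3, a receptor of the EGF family, fell by 0.56 in p300-deleted cells (limma adjusted p = 0.0266). Egfr itself differed by -0.10 and -0.13. Of 10 genes of the adrenomedullin system 0 passed in either knockout; Calcrl, the receptor of adrenomedullin, differed by -0.09 and -0.07, and Ramp1, a partner of that receptor, by -0.55 and -0.34. Of 6 genes of peptidoglycan recognition 0 passed; Lyz2, lysozyme, differed by 0.63 and 1.29 and Tlr2 by 0.45 and 0.54, opposite in sign to Pglyrp1. By sign 3 of the 6 were lower in CBP-deleted cells, Pglyrp2, Trem1 and Tyrobp, and 1, Pglyrp2, in p300-deleted cells. The relatives of She, Shd and Shf, differed by -0.13 and -0.30 in CBP-deleted cells and by -0.16 each in p300-deleted cells and did not pass.

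**Figure D5:**
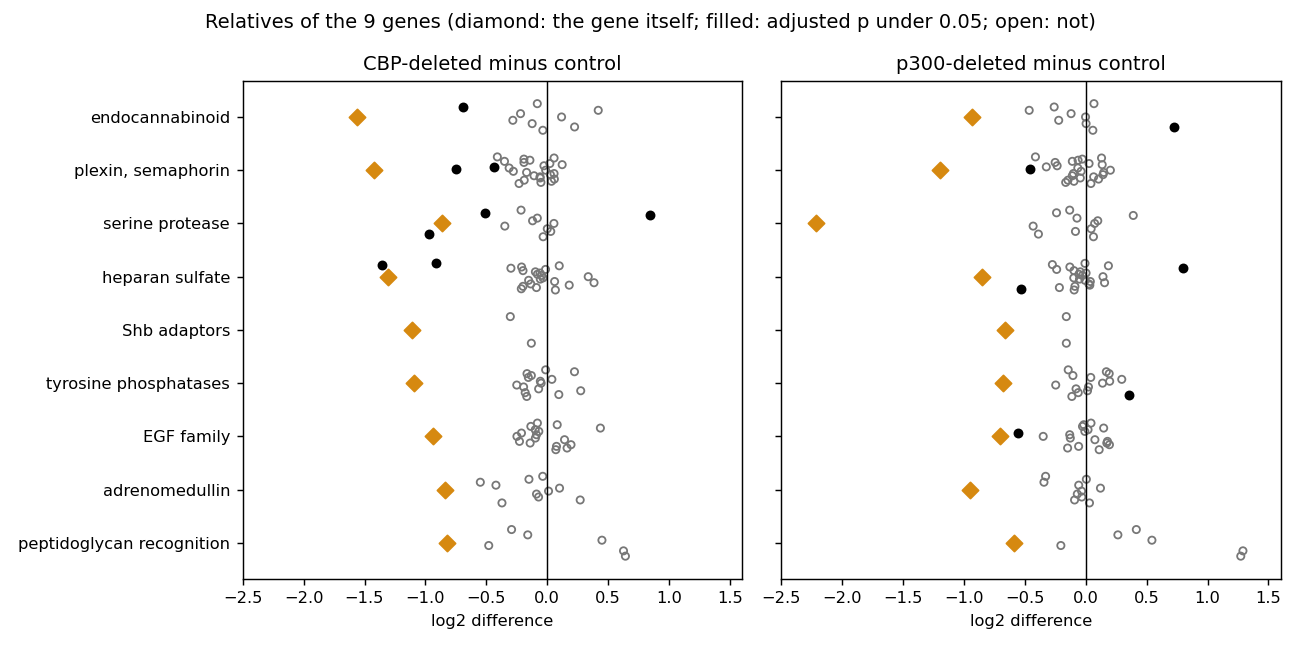
Log2 difference from control (horizontal axis) in CBP-deleted (left) and p300-deleted (right) cells for the measured genes of each family; diamonds are the 9 genes, filled points passed at an adjusted p under 0.05 and open points did not. The diamonds lie at -0.59 or lower, and most relatives lie near 0.

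Likeness was sought among genes outside the 9 whose mean was at least the median over all genes, with predicted and unnamed genes left out. By Pearson correlation over the 9 arrays, the genes most like the mean standardised profile of the members were Gna11 (r = 0.98), Tfip11 (0.97), Pgap6 (0.97), Psen2 (0.97) and Relb (0.96). Their differences from control were smaller than those of most members: Gna11 had -0.41 and -0.32, and Psen2 -0.71 and -0.54. Cnr2 was most like Pde2a, a cyclic nucleotide phosphodiesterase (r = 0.98, with -1.30 and -0.72), and Abhd8 (r = 0.98). Plxnd1 was most like Ap2a2, an endocytic adaptor subunit (r = 0.97), and the channel Trpv2 (r = 0.97). Tmprss13 was most like Cmtm7 (r = 0.98), which differed by -0.33 from control where CBP was deleted and by -0.81 where p300 was, and Alyref (r = 0.96). The groups' own differences enter these correlations, and the genes were picked as the highest of many, so they describe likeness and carry no test.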

How the data were processed

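Affymetrix 3' arrays measured RNA from 9 samples of CD4+CD25+ Treg cells, 3 per group. The deposited values are 1 log2 value per probe set and array, summarised with RMA by the authors, per the submitters' processing notes; version and background settings are not given in the sources used here. They were used as deposited. Of 22690 probe sets, 64 controls, 691 with several gene symbols and 1555 with none were set aside. Symbols came from the platform annotation and RefSeq GRCm38.p6 (24 identifiers had no match, 0 symbols changed). Each of 12393 genes was read by its probe set with the highest mean over all arrays. Groups were compared in R 4.3.3 by limma 3.58.1 (a mean for each group, 6 residual degrees of freedom, variance trend, two-sided, Benjamini-Hochberg over all genes at 0.05), after a test on simulated data. The members, lists and tests were chosen with earlier results of these data known. For each family list, up to 3 genes past the threshold with the largest changes against control are named, otherwise those with the largest differences, plus a few partners and differences between the knockouts chosen after their values were seen. Alternatives were scaling, probe set choice, a filter on dim genes, no trend, only 2 groups, a replicate block, an 18S covariate (chosen after seeing the data) and leaving out each array.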

Additional observations from a re-analysis of the deposited data

Results flagged for a closer look

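Tmprss13 was the member whose change from control differed between the knockouts by a test. It was 1.35 higher on the log2 scale in CBP-deleted than in p300-deleted cells (limma adjusted p = 0.00169 and 0.0004175 to 0.0166 under the 19 alternatives). All 3 CBP-deleted arrays lay above all 3 p300-deleted arrays, and 30.1% of all genes separated in either direction. The result rests on 1 probe set, whose p300-deleted readings lie under the lower quartile of their arrays.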

How the results depend on the processing

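All 9 genes were below control in both knockouts under all 19 alternatives, but leaving out an array cannot turn a sign where groups do not overlap. Averaging the probe sets of each gene brought Ptpn5 to -0.54 in CBP-deleted cells, to -0.33 in p300-deleted cells, and Hbegf to -0.74 in CBP-deleted cells and -0.47 in p300-deleted cells. Between the knockouts, Adm ranged from -0.065 without CBP-deleted replicate 1 to 0.28 without CBP-deleted replicate 2, and Tmprss13 passed throughout. Counts of called genes moved more. Without single arrays they ranged over 212 to 1041 between the knockouts (lowest without CBP-deleted replicate 2, highest without control replicate 2), 85 to 1131 for CBP-deleted against control (lowest without CBP-deleted replicate 3, highest without control replicate 3) and 65 to 854 for p300-deleted against control (lowest without p300-deleted replicate 2, highest without control replicate 3). With only the 2 groups of a comparison they were 1386, 261 and 165. With 18S as a covariate the counts against control were 364 and 244. With the replicate block they were 364 and 326 against control and 524 between the knockouts. Same-numbered arrays had correlations of -0.23 to 0.27 in their deviations, and differently numbered arrays -0.19 to 0.26. No pairing by number was visible in these values, which does not show that the samples were unpaired. The causes were not tested.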
